A study of Mus musculus with 6 samples.

Results

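The nuclear genes for the subunits of the mitochondrial respiratory chain and of ATP synthase were followed in the livers of mice treated with an siRNA against Rnf10. Members were chosen by gene symbol: the Nduf genes of complex I, Sdha to Sdhd of complex II, the Uqcr genes of complex III, the Cox4 to Cox8 genes of complex IV and the Atp5 genes of complex V, without names carrying -ps. The rule found 89 of 55487 genes in the count table, which were 38 for complex I, 4 for complex II, 8 for complex III, 21 for complex IV and 18 for complex V. Ndufa4 and Ndufa4l2 match the Nduf pattern but were counted with complex IV, since NDUFA4 is known as a subunit of that complex. Of the 89 genes, 85 are annotated as protein coding and 4 as pseudogenes.

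RNA was sequenced from 6 male wild-type mice on a normal chow diet, with livers taken at 17 weeks of age. The animals received a subcutaneous conjugate of N-acetylgalactosamine (GalNAc), a sugar that the asialoglycoprotein receptor of hepatocytes takes up. In the GalNAc-siNC group (n = 3 mice) it carried a control siRNA, and in the GalNAc-siRnf10 group (n = 3 mice) an siRNA against Rnf10, which encodes an E3 ubiquitin ligase. Each mouse gave 1 library, and all libraries carried the same batch label. The siRNA acts mainly in hepatocytes, so the mice are no whole-body knockouts, and other liver cells contributed RNA to every library.

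The respiratory chain passes electrons from NADH and succinate to oxygen and pumps protons across the inner mitochondrial membrane, and ATP synthase lets the protons return to make ATP. Complexes I, III, IV and V contain a few subunits encoded in mitochondrial DNA and many encoded in the nucleus, whereas complex II is nuclear throughout. Hepatocytes are rich in mitochondria. The transcription factors NRF1 (nuclear respiratory factor 1), GABP of the ETS family and YY1, with coactivators of the PGC-1 family, are the textbook regulators of these nuclear genes.

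Total counts ranged from 26854377 to 33058645 per library, and 14046 genes had enough counts to be tested. A normalized count is a raw count scaled by library size and edgeR's TMM factor, a log2 fold change is the GalNAc-siRnf10 group relative to the GalNAc-siNC group, and a gene was called when the quasi-likelihood test of edgeR gave a p under 0.05 after Benjamini-Hochberg adjustment over all tested genes. Rnf10 was checked first. Its normalized counts were 3855, 4520 and 4026 with GalNAc-siNC and 1732, 1814 and 1787 with GalNAc-siRnf10. The log2 fold change was -1.22 (SE 0.0715, adjusted p = 3.29e-09). All 6 defining hepatocyte markers were present. Of them, 4 (Alb, Ttr, Cps1 and Cyp2e1) were called higher with GalNAc-siRnf10, beside 6.71% of all tested genes. The 6 together took 5.71% to 6.20% of the counts in GalNAc-siNC livers and 8.30% to 8.46% in GalNAc-siRnf10 livers, most of it Alb. Muscle markers had at most 2 counts and adipose markers at most 3 in any mouse. In bulk liver, fewer cells of a type and less RNA per cell cannot be told apart.

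Promoters are shown here because most members moved together: those of 2 called members, and stretches with an NRF1 core from 2 members that were not called. Windows covering 250 bases before a RefSeq start site (GRCm38.p6) were found by symbol for 68 of the 89 members. Some windows overlap exons of the gene models in the count table, so only stretches that overlap none are printed. Ndufb6, the member of complex I with the lowest adjusted p, and Cox5a, the called member of complex IV, gave the windows chr4:40279422-40279671 (minus strand) and chr9:57520982-57521231 (plus strand), read 5′ to 3′. Capitals mark an ETS core (CCGGAAG, here as its complement CTTCCGG), which starts 232 bases before the RefSeq start of Ndufb6. The Cox5a window holds none of the letters searched.
Ndufb6: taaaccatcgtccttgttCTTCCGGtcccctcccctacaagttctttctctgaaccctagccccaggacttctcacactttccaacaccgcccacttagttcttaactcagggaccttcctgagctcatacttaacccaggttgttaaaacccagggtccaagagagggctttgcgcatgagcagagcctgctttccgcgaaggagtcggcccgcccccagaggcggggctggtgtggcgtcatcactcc
Cox5a: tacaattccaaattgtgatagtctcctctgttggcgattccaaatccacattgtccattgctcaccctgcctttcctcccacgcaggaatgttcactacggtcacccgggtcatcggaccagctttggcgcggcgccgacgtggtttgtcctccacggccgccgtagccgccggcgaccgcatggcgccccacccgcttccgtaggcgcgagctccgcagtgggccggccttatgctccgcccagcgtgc

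The palindromic NRF1 core CGCATGCG was found in the windows of 7 of the 68 members: Atp5g2, Atp5j, Atp5k, Atp5l, Cox6a1, Ndufa8 and Ndufa11. For 5 of them the stretch around the core overlaps an exon of a gene model, and the other 2 are printed with the core in capitals. The Ndufa11 stretch is chr17:56717687-56717726 (plus strand) and the Atp5l stretch is chr9:44920960-44920992 (minus strand).
Ndufa11: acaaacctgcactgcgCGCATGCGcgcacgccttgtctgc
Atp5l: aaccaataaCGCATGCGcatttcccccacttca

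This NRF1 core was in 10.3% of the member windows, in 1.55% of all 32851 promoter windows and in 3.50% of 10352 tested genes with a window. The ETS core CCGGAAG was in 17.6% of members (12 of 68), against 6.91% of all windows and 15.2% of tested genes. The YY1 core AAGATGGC was in 1 member, Atp5j (1.47%), and in 2.43% of tested genes. The CCAAT box was in 44.1% of members and 40.4% of tested genes, and the TATA box TATAAA in 8.82% and 8.55%. All letters were searched on both strands. Fold changes had a log2 median of 0.45 in the 7 tested members with the NRF1 core and 0.48 in the 57 without it, and for the ETS core it was 0.49 in 12 members and 0.44 in 52. A match is a description of the letters in the window.

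Respiratory chain and ATP synthase transcripts were higher in livers treated with GalNAc-siRnf10, by median fold change in every complex. In complex IV, the share of members called was near that of all tested genes. Of the 89 members, 80 were tested, 27 were called higher and 0 lower. The share called higher was 33.8% of the members tested, beside 6.71% of all tested genes, and the share called lower in all tested genes was 7.28%. Counted at an unadjusted p under 0.05, 53 of the 80 tested members passed, as did 3754 of all 14046 tested genes. The median log2 fold change of the 80 members was 0.46 (range -0.54 to 0.73), beside 0.0022 for all tested genes. Of the 80, 79 lay above 0, beside 7066 of the 14046 tested genes. With the length correction described below, 78 of the 80 did. The exception was Ndufa4l2, joined by the pseudogene Cox6c2 with that correction. In 75 of the 80 members every GalNAc-siRnf10 mouse was above every GalNAc-siNC mouse, which was true of 16.5% of all tested genes. The smallest p that an exact two-sided permutation test allows with 3 mice against 3 is 0.1.

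The summed level of each complex pointed the same way. Levels were compared as TPM, counts per kilobase of the deposited gene model scaled to the same total in every library. The nuclear members of complex I summed to 2612, 3381 and 3576 TPM in GalNAc-siNC mice 1, 2 and 3, and to 3992, 4006 and 3968 TPM in GalNAc-siRnf10 mice. Complex II summed to 744, 787 and 792 TPM against 900, 899 and 884 TPM. For complex III the sums were 1315, 1674 and 1868 TPM against 2035, 2059 and 2068 TPM. In every complex, the groups did not overlap.

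Complex IV summed to 2254, 3029 and 3433 TPM with GalNAc-siNC and to 3839, 3850 and 3774 TPM with GalNAc-siRnf10. Complex V summed to 2563, 2885 and 2979 TPM and to 3283, 3333 and 3278 TPM. The difference of the means was 25.0% for complex I, 15.5% for complex II, 26.9% for complex III, 31.5% for complex IV and 17.4% for complex V. Without GalNAc-siNC mouse 1, which was the lowest mouse in all 5 complexes, it was 14.7% for complex I, 13.3% for complex II, 15.97% for complex III, 18.3% for complex IV and 12.5% for complex V. The sums over all members were 9489, 11757 and 12647 TPM in the GalNAc-siNC mice and lay between 13972 and 14146 TPM in the GalNAc-siRnf10 mice.

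**Figure D1:**
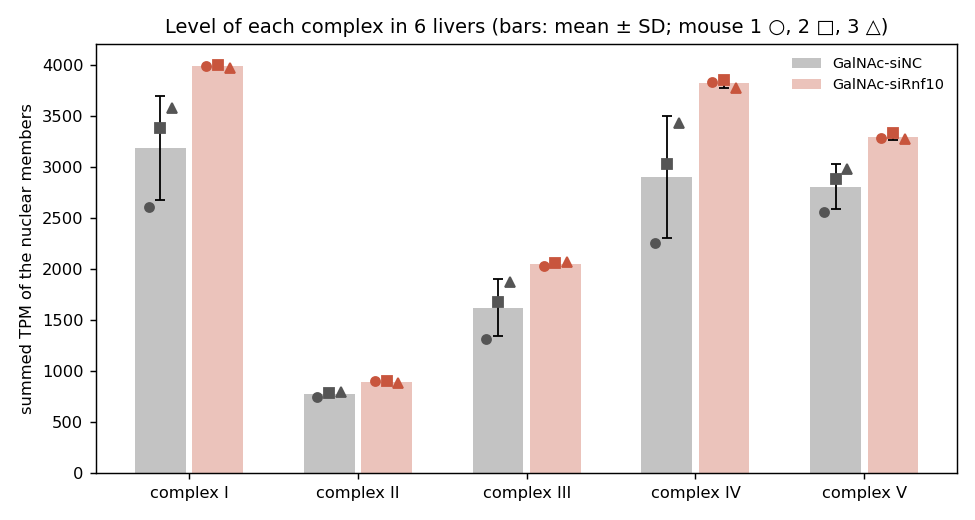
Summed TPM of the nuclear members of each complex (y axis) in every liver, with GalNAc-siNC in grey and GalNAc-siRnf10 in red. Bars are means, error bars SD (n = 3 mice), and symbols single mice. The GalNAc-siRnf10 points lie close together and above all GalNAc-siNC points, of which mouse 1 is the lowest.

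Complex I takes electrons from NADH through a hydrophilic arm and passes them to ubiquinone, and its 38 members split here into 7 core genes, 28 accessory genes and 3 pseudogenes. Of the 37 tested, 15 were called higher and 0 lower, with a median log2 fold change of 0.44. Among the core genes, which hold the flavin and iron-sulfur clusters, 6 of 7 were called higher. Among them, Ndufv2 had a log2 fold change of 0.28, Ndufs3 of 0.30 and Ndufs7 of 0.41. Ndufs8 had 0.34 (adjusted p = 0.0671). Accessory genes were called in 9 of 28, and their median log2 fold change was 0.46, beside 0.30 for the core genes. Without GalNAc-siNC mouse 1 these medians were 0.28 and 0.25. Accessory genes are also shorter, with a median gene model of 1234 bases against 2178, and the difference between these groups of genes was not tested.

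Ndufs1 (ENSMUSG00000025968, GRCm38 chromosome 1 from 63143596 to 63176833) encodes the large iron-sulfur subunit of the NADH-oxidizing arm. Its normalized counts were 2502, 2448 and 2593 with GalNAc-siNC and 3185, 3024 and 3042 with GalNAc-siRnf10. The groups did not overlap, and the GalNAc-siNC mice were close to each other. The means were 2514 ± 73.0 and 3084 ± 88.5 (SD, n = 3 each), a rise of 22.7% (log2 fold change 0.29, SE 0.0634, adjusted p = 0.00426).

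Ndufv1, whose product binds NADH and the flavin, had 3143, 3918 and 3771 normalized counts with GalNAc-siNC and 4658, 4549 and 4514 with GalNAc-siRnf10. It rose by 26.7% (log2 fold change 0.34, SE 0.0755, adjusted p = 0.00517). Here GalNAc-siNC mouse 1 was the low one, and the 3 treated mice were nearly level.

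The accessory subunit genes called higher were Ndufa3, Ndufa5, Ndufa9, Ndufb3, Ndufb5, Ndufb6, Ndufb8, Ndufb9 and Ndufs4. Ndufa5 showed the largest called rise of complex I, with 574, 682 and 851 normalized counts in GalNAc-siNC mice and 1093, 1105 and 1039 in GalNAc-siRnf10 mice (53.6% higher, log2 fold change 0.62, SE 0.116, adjusted p = 0.00235). Ndufb6, a subunit of the membrane arm whose promoter is printed above, had 769, 941 and 1060 against 1378, 1335 and 1285 (44.2% higher, adjusted p = 0.00145). Smim27, with 183 counts over all mice, overlaps 39.0% of the exonic bases of Ndufb6 on the opposite strand. The strand setting of the counting is not given in the sources used here.

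Ndufa3 rose by 45.8%, from 731 ± 132 to 1065 ± 11.5 normalized counts (SD, n = 3 each). Ndufb9 rose by 38.8%, and a gene model named Gm49356 overlaps 19.5% of it on the same strand. Ndufs4, whose loss in mice is a model of Leigh syndrome, rose by 31.5% (adjusted p = 0.00509). The other called accessory genes rose by 27.6% (Ndufa9) to 45.5% (Ndufb3).

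Several accessory genes had larger fold changes but were not called. Ndufb4 had 650, 1110 and 1230 normalized counts with GalNAc-siNC and 1703, 1513 and 1512 with GalNAc-siRnf10 (log2 fold change 0.66, SE 0.253, adjusted p = 0.181). The GalNAc-siNC mice spread over about as many counts as separated the group means. Ndufa10 was at the low end, with a log2 fold change of 0.15 (adjusted p = 0.118). Ndufa8, the member of complex I with the highest TPM by gene model length (221 ± 39.7 in GalNAc-siNC mice), had overlapping groups: 1721, 2444 and 2656 normalized counts against 2643, 2853 and 2594. Ndufb2 had the lowest TPM of the tested members, 1.66 ± 0.107 in GalNAc-siNC mice, by a gene model of 5628 bases. That model overlaps Gm16272 and Braf on the opposite strand (5.37% of its bases) and Gm42420 on the same strand (2.58%). The log2 fold change of Ndufb2, 0.48, missed the threshold (adjusted p = 0.0520). The pseudogene Ndufb4c had the largest fitted log2 fold change of all members, 0.73, on 26 to 70 raw counts (adjusted p = 0.119), and every 100-base word of it also occurs in another gene.

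**Figure D2:**
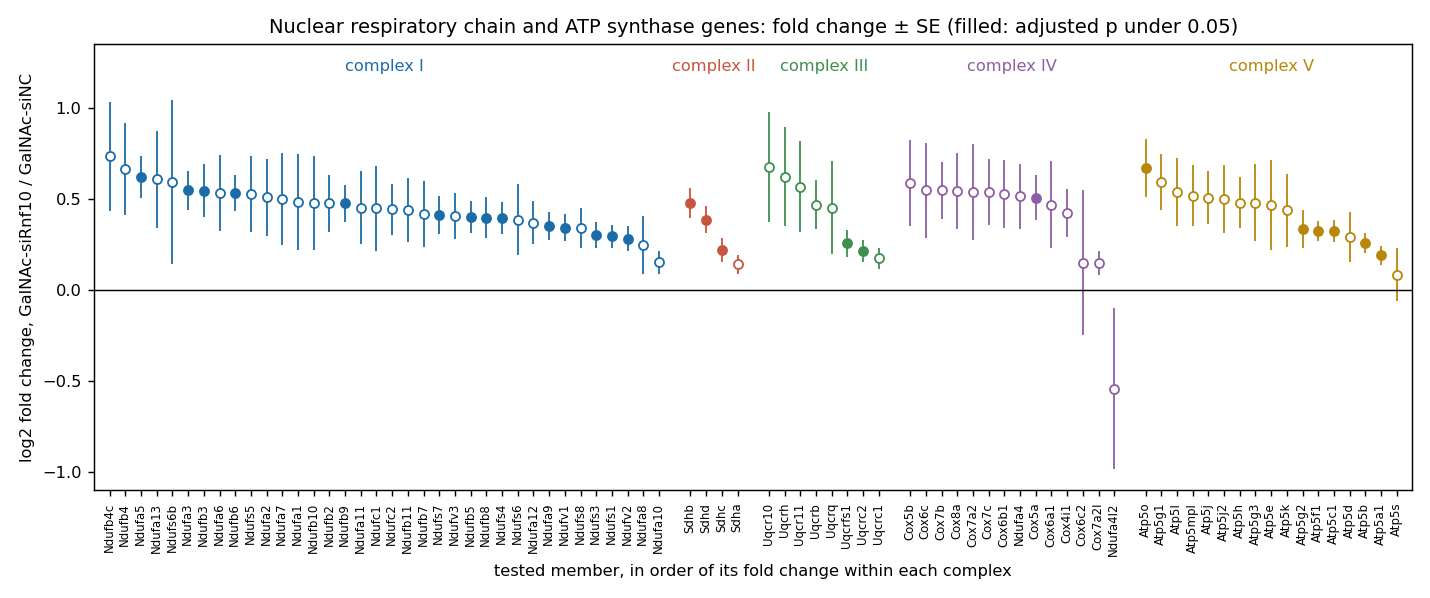
Log2 fold change (y axis) of the tested members, 1 of them left out, with its standard error, ordered within each complex along the x axis. Filled points were called at an adjusted p under 0.05 and open points were not. All points except Ndufa4l2 lie above 0 in this fit (Cox6c2 also falls below 0 once length is corrected), and the largest fold changes of complexes I, III and IV carry long error bars.

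Complex II, succinate dehydrogenase, joins the citric acid cycle to the chain and has 4 subunits, all nuclear. All 4 genes were tested and 3 were called higher. Sdhb, the iron-sulfur subunit (ENSMUSG00000009863, chromosome 4 from 140961203 to 140979193), had 3327, 4075 and 4351 normalized counts with GalNAc-siNC and 5481, 5661 and 5216 with GalNAc-siRnf10. It rose by 39.2% (log2 fold change 0.48, SE 0.0846, adjusted p = 0.00141). The lowest treated mouse exceeded the highest control mouse by a margin wider than the spread of the treated mice.

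The membrane anchor genes Sdhd and Sdhc also rose. Sdhd went from 4237 ± 443 to 5535 ± 184 normalized counts (SD, n = 3 each), 30.6% higher (adjusted p = 0.00151), and Sdhc from 4102 ± 215 to 4773 ± 207, 16.4% higher (adjusted p = 0.0294). Sdha, the flavoprotein that oxidizes succinate, had 11336, 11168 and 11597 normalized counts against 12683, 12776 and 12101. Its difference was 10.1% (log2 fold change 0.14, SE 0.0532, adjusted p = 0.0953). The groups did not overlap, but the gene was not called. By TPM over the gene model length, Sdhd was the highest of the 4 (289 ± 19.3 in GalNAc-siNC mice) and Sdhc the lowest (106 ± 1.87). By the length of the principal transcript, Sdha (255 TPM) was above Sdhd (223 TPM).

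Complex III, the cytochrome bc1 complex, carries electrons from ubiquinol to cytochrome c. Of its 8 members, all tested, 2 were called higher and 0 lower, with a median log2 fold change of 0.46. Uqcrc2, a core protein, had 5115, 4702 and 4824 normalized counts with GalNAc-siNC and 5671, 5793 and 5530 with GalNAc-siRnf10, and rose by 16.1% (log2 fold change 0.22, SE 0.0595, adjusted p = 0.0219). It was one of the few members in which GalNAc-siNC mouse 1 was not the lowest. Pdzd9, with 27 counts over all mice, overlaps 19.75% of the exonic bases of Uqcrc2 on the opposite strand. Uqcrfs1, the Rieske iron-sulfur protein and the member of complex III with the highest TPM by gene model length (314 ± 23.5), rose by 19.4% (adjusted p = 0.0267). This call was lost with the length correction described below (adjusted p = 0.127).

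Uqcrc1, the other core protein (chromosome 9 from 108936633 to 108949623), had 6070, 6672 and 6454 normalized counts against 7058, 7242 and 7343 (log2 fold change 0.17, SE 0.0581, adjusted p = 0.0577). It had the lowest TPM of the complex by gene model length, 130 ± 4.29 in GalNAc-siNC mice. By principal transcript length the lowest was Uqcrc2 (168 TPM) and the highest Uqcrh (272 TPM), with Uqcrc1 at 251 and Uqcrfs1 at 242 TPM. The small subunit genes had the larger fold changes and wider control spread. Uqcr10 had 900, 1581 and 1955 normalized counts with GalNAc-siNC and 2282, 2393 and 2397 with GalNAc-siRnf10 (log2 fold change 0.68, SE 0.301, adjusted p = 0.247). Uqcrh, the hinge protein, had 1528, 2315 and 3093 against 3529, 3614 and 3516 (0.62, adjusted p = 0.238). In both genes the treated mice were close to each other while the control mice spread over a 2.17-fold range for Uqcr10 and a 2.02-fold range for Uqcrh.

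Complex IV, cytochrome c oxidase, reduces oxygen. Of its 21 members 14 were tested, and 1 was called higher and 0 lower. The share called higher, 7.14%, was near the 6.71% of all tested genes. Most of the untested members are isoform genes known from other tissues. The called gene was Cox5a, a subunit on the matrix side. It had 1165, 1641 and 1693 normalized counts with GalNAc-siNC and 2137, 2091 and 2155 with GalNAc-siRnf10. It rose by 41.9% (log2 fold change 0.51, SE 0.125, adjusted p = 0.0253). In 12 of the 14 every GalNAc-siRnf10 mouse was above every GalNAc-siNC mouse, which was true of 16.5% of all tested genes. The median log2 fold change over the 14 was 0.52. That median was 0.33 without GalNAc-siNC mouse 1. Cox4i1, a common marker of the complex (chromosome 8 from 120668222 to 120674207), had 4358, 5698 and 6397 normalized counts against 7402, 7414 and 7208. Its mean was 33.9% higher (log2 fold change 0.42, SE 0.130, adjusted p = 0.0829), with a standard deviation of 1036 in the GalNAc-siNC mice and 115 in the GalNAc-siRnf10 mice.

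Isoform pairs of complex IV were unequal in level in both groups. Cox4i1 stood at 297 ± 44.6 TPM in GalNAc-siNC mice and Cox4i2, its oxygen-regulated partner, at 0 to 8 raw counts per mouse. Cox6a1 had the highest TPM of the complex by gene model length (550 ± 138), and its heart and muscle partner Cox6a2 had 0 to 2 counts. Cox6b1 stood at 320 ± 67.0 TPM and Cox6b2, the testis form, at 0 to 8 counts. For Cox7a2 the level was 171 ± 47.9 TPM and for its muscle partner Cox7a1 it was 4 to 18 counts. Cox8a stood at 416 ± 93.9 TPM, Cox8b had at most 1 count and Cox8c had 0. Cox7b stood at 208 ± 37.6 TPM, and Cox7b2 had 0 counts. A count of 0 allows up to 3 counts, which is 9.07e-06% to 1.12e-05% of a library, for counting error only.

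None of Cox6a1, Cox6b1, Cox7a2, Cox7b and Cox8a was called. Their log2 fold changes were 0.47, 0.53, 0.54, 0.55 and 0.54, with adjusted p between 0.0705 (Cox7b) and 0.305 (Cox6a1). Cox5b had the largest log2 fold change of the complex, 0.59 (SE 0.237, adjusted p = 0.206). Cox7a2l, which takes part in joining complexes III and IV into supercomplexes, had 0.15 (adjusted p = 0.174). Ndufa4 had 3805, 5217 and 6103 normalized counts against 7230, 7387 and 6959 (0.51, SE 0.176, adjusted p = 0.137). Its hypoxia-inducible paralog Ndufa4l2 was low, with 20.8, 30.8 and 60.1 against 11.3, 34.3 and 29.7 normalized counts. Its groups overlapped, and its log2 fold change was -0.54 (SE 0.442, adjusted p = 0.480).

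Complex V, ATP synthase, couples a membrane rotor to the catalytic F1 head. Of 17 tested members, 6 were called higher and 0 lower, with a median log2 fold change of 0.47. In the F1 head 3 of 5 genes were called higher, and all 5 had a log2 fold change above 0. Atp5b, the catalytic beta subunit (chromosome 10 from 128083273 to 128090391), had 25360, 28139 and 28559 normalized counts with GalNAc-siNC and 32667, 33006 and 32516 with GalNAc-siRnf10, a rise of 19.7% (log2 fold change 0.26, SE 0.0551, adjusted p = 0.00389). Atp5a1, the alpha subunit, rose by 14.0% (adjusted p = 0.0186). Atp5c1, the central gamma shaft, rose by 25.1% from 6388 ± 364 to 7994 ± 197 normalized counts (adjusted p = 0.00120).

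Atp5f1, the b subunit of the peripheral stalk that holds the head still, had the lowest adjusted p of all members (0.000682). Its normalized counts were 7512, 7184 and 7746 with GalNAc-siNC and 9516, 9428 and 9144 with GalNAc-siRnf10. Neither group spread far, and the rise was 25.2% (log2 fold change 0.32, SE 0.0558). The stalk gene Atp5o, which encodes the oligomycin sensitivity protein, had 260, 381 and 432 against 527, 556 and 620 (58.6% higher, log2 fold change 0.67, SE 0.158, adjusted p = 0.0148). Of all called members it had the largest fold change. Its exons share 35.6% of their bases with genes on the opposite strand, which had at most 2 counts each over all mice. A second Atp5o identifier overlaps 12.3% of these exons on the same strand. Of the 100-base words of Atp5o, 21.2% occur in other genes.

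The membrane ring of c subunits is made from the genes Atp5g1, Atp5g2 and Atp5g3, whose mature products are the same protein. Atp5g3 had the highest TPM (259 ± 58.3 in GalNAc-siNC mice), above Atp5g2 (69.1 ± 8.16) and Atp5g1 (43.0 ± 7.32). Only Atp5g2 was called (26.1% higher, adjusted p = 0.0460), and 86.4% of its 100-base words occur in other genes. Atp5g1 had a larger log2 fold change of 0.59 (SE 0.154, adjusted p = 0.0526) and Atp5g3 had 0.48 (SE 0.213, adjusted p = 0.243). No gene of the other Fo group was called. In all 4 every GalNAc-siRnf10 mouse was above every GalNAc-siNC mouse, which was true of 16.5% of all tested genes. Atp5s, which is no subunit, had 176, 185 and 207 normalized counts against 182, 179 and 240 (adjusted p = 0.768).

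Per kilobase, Atp5a1 had the highest level of all members (678 ± 21.7 TPM in GalNAc-siNC mice and 718 ± 6.70 in GalNAc-siRnf10 mice), followed by Cox6a1 and Atp5b (543 ± 14.6). In GalNAc-siNC mice Cox6a1 (550 ± 138) and Atp5b did not differ beyond the spread of Cox6a1, whereas in GalNAc-siRnf10 mice Cox6a1 stood at 710 ± 24.9 and Atp5b at 604 ± 5.76 TPM. The deposited gene models join all exons of a gene, and for some members they are much longer than the main mRNA, such as 6443 bases against 544 for Atp5l. With the length of the principal transcript, an alternative chosen after seeing the data, Atp5b led with 926 TPM in GalNAc-siNC mice, ahead of Atp5a1 (664). In complex I Ndufa6 (247 TPM) was then above Ndufa8 (171 TPM), and in complex IV Ndufa4 (533 TPM) above Cox6a1 (521 TPM).

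The control mice differed from each other in these genes. GalNAc-siNC mouse 1 was the lowest of the 6 mice in 72 of the 80 tested members. Its median log2 difference from GalNAc-siNC mice 2 and 3 was -0.50 over the members and -0.0015 over all tested genes. The mean of the GalNAc-siRnf10 mice was above mouse 1 in 79 members, above mouse 2 in 79 and above mouse 3 in 77, with median log2 differences of 0.82, 0.38 and 0.22. The difference was smallest against mouse 3. Within groups, the median coefficient of variation of the members was 20.9% in GalNAc-siNC mice and 3.18% in GalNAc-siRnf10 mice, beside 11.1% and 7.33% for all tested genes.

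**Figure D3:**
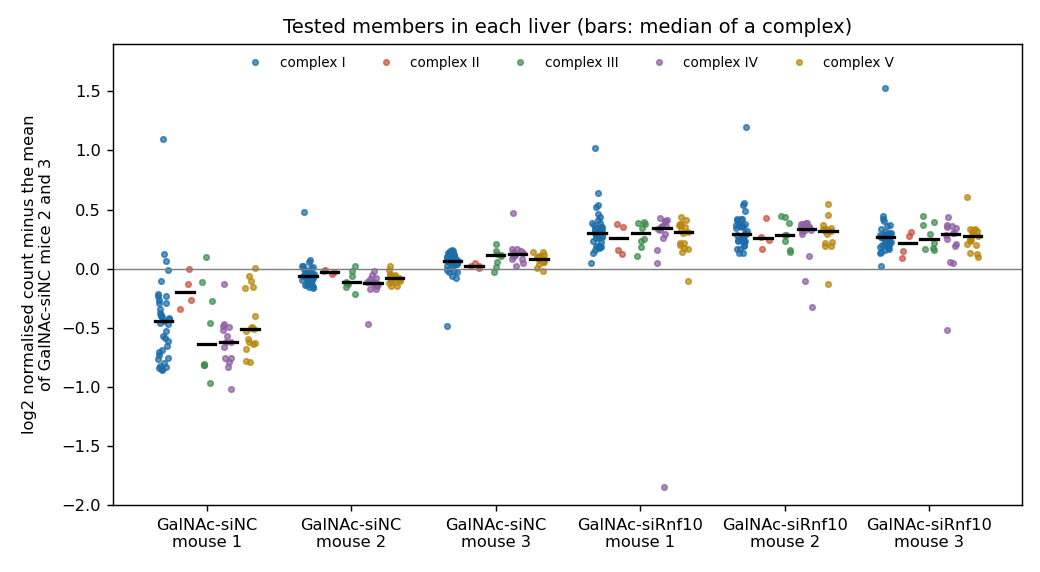
Log2 normalized count of each tested member minus its mean in GalNAc-siNC mice 2 and 3 (y axis), for the 6 livers (x axis) and the 5 complexes (colors), with black bars at the medians. The medians of GalNAc-siNC mouse 1 lie below those of the other control mice in every complex, and the medians of the 3 GalNAc-siRnf10 mice lie above them at nearly the same height.

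With GalNAc-siNC mouse 1 left out, 68 of the 80 members were called higher and 0 lower, while 9.73% of all tested genes were called higher. Their median log2 fold change was 0.29. All 4 Sdh genes, all 8 Uqcr genes and all 7 core genes of complex I were then called, as were 11 of 14 tested members of complex IV and 14 of 17 of complex V. Cox4i1 had a log2 fold change of 0.28 (adjusted p = 4.47e-05), Sdha 0.14 (adjusted p = 0.0251) and Uqcrc1 0.13 (adjusted p = 0.0367). The fold changes became smaller and the number of calls larger. Leaving out GalNAc-siNC mouse 3 gave 61 calls, with 6.91% of all tested genes called higher, and leaving out GalNAc-siNC mouse 2 gave 22, with 5.56%. Leaving out GalNAc-siRnf10 mouse 1, 2 or 3 gave 14, 15 and 15 calls, with 3.59%, 3.77% and 3.77% of all tested genes called higher, so calls were fewer over all genes too. In these 6 fits 12 members were called every time: Ndufv1, Ndufa3, Ndufa5, Ndufb5, Ndufb6, Ndufb9, Ndufs4, Sdhb, Sdhd, Atp5b, Atp5c1 and Atp5f1. How many of all tested genes were called in all 6 was not counted.

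Gene length moved with these differences. Among all 919 tested genes under 1 kb, the median log2 fold change was 0.24, against -0.040 for the 7223 genes over 4 kb. The median deviation of GalNAc-siNC mouse 1 from the mean of all mice was -0.29 and 0.066 in these bins. Members are short, with a median gene model of 1578 bases in the 80 tested members against 4122.5 for all tested genes. In the 20 members under 1 kb the median log2 fold change was 0.52, in 31 members of 1 to 2 kb 0.48, in 19 members of 2 to 4 kb 0.35 and in 10 members over 4 kb 0.36. In each bin of gene model length the members were above all genes of that bin, whose medians were 0.24, 0.11, 0.013 and -0.040. The model can be much longer than the principal transcript, as in Ndufb7 (4522 bases against 623). The bin over 4 kb thus includes members with short principal transcripts. Across the 80 members, the fold change and the gene model length had a Spearman coefficient of -0.36 and a Pearson coefficient of -0.23. With principal transcript length these were -0.55 and -0.39. Over all tested genes the Spearman coefficient was -0.19 with gene model length and -0.24 with principal transcript length. All are a description over genes of the same libraries.

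When a smooth trend of length was removed from every library, 39 members were called higher and 0 lower, and 7.87% of all tested genes were called higher. The median log2 fold change of the members was then 0.35. Complex IV went from 1 call to 6 and complex II from 3 to 4, and 25 of the 27 called members remained called. The 2 that were lost were Uqcrfs1 and Atp5g2 (adjusted p = 0.0536). The marker genes had adjusted p of 0.000946 (Ndufs1), 0.0263 (Sdha), 0.0141 (Uqcrc1) and 0.0167 (Cox4i1). With the length of the principal transcript in place of the gene model, 40 members and 7.97% of all tested genes were called higher. The median of the members was then 0.29, and 23 of the 27 called members remained called. With GC content added to the trend, 21 remained called with gene model length and 22 with principal transcript length. The part of the hepatocyte markers in this result, with 5.71% to 6.20% of counts against 8.30% to 8.46%, was not tested.

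**Figure D4:**
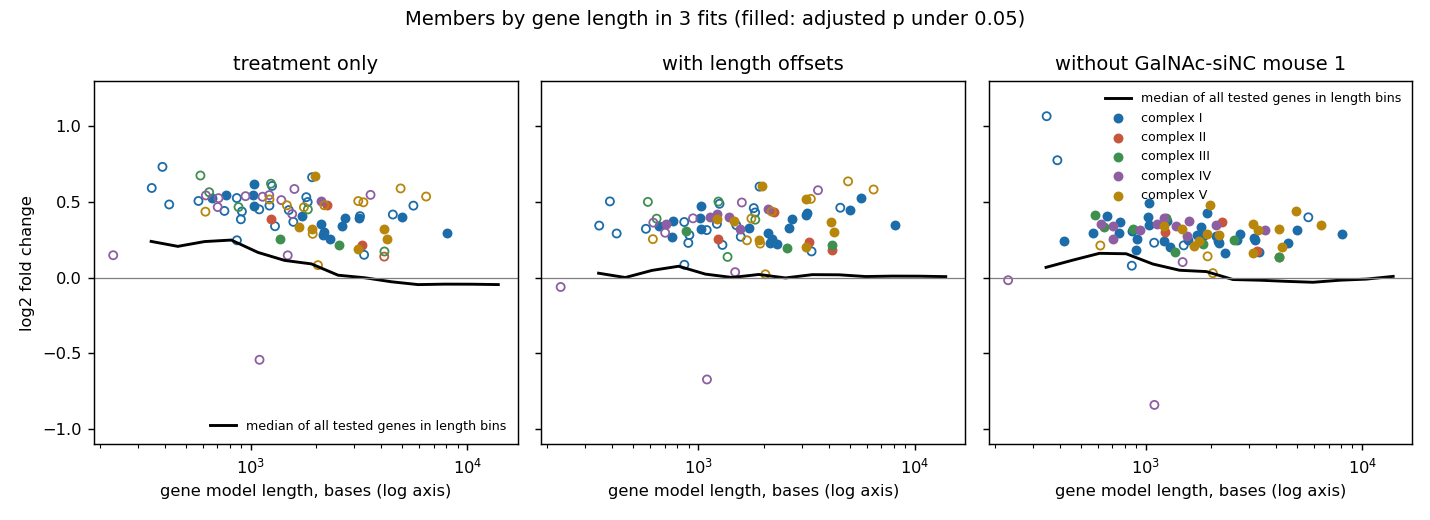
Log2 fold change of the members (points, y axis) against gene model length in bases (x axis, log scale) in 3 fits, with the median of all tested genes in length bins as a black line. Filled points were called. The line falls with length in the left panel, is nearly flat with length offsets, and most members lie above it in each panel, with 27, 39 and 68 filled points.

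Of the members, 24 overlap another gene or share 100-base words with one over at least 10% of their length. Among the 58 tested members that do not, 19 (32.8%) were called higher, with a median log2 fold change of 0.44. Of all tested genes, 6.71% were called higher, and the share among genes free of such overlap was not counted. Low counts kept 9 members out of the test, of which 4 had 0 counts in every mouse, and the highest count among the 9 was 18. One of those at 0 is a short second identifier of Atp5o, which lies within exons of the first and of Donson.

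Genes that work beside the subunits were examined with lists outside the rule. The electron carrier cytochrome c (Cycs) had 2304, 2295 and 2649 normalized counts with GalNAc-siNC and 3280, 3195 and 3117 with GalNAc-siRnf10, and rose by 32.3% (log2 fold change 0.40, SE 0.0706, adjusted p = 0.000769). Cyc1, the cytochrome c1 subunit of complex III, rose by 26.2% (adjusted p = 0.00525). Ndufab1, the acyl carrier subunit of complex I, had a log2 fold change of 0.32 (adjusted p = 0.111).

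Among assembly factors, 2 of 15 for complex I were called higher, 1 of 10 for complexes II and III, 1 of 16 tested for complex IV and 0 of 4 for complex V, and 0 of any were called lower by edgeR, DESeq2 or limma voom. Together 4 of 45 tested assembly factors were called higher, which is 8.89% and near the 6.71% of all tested genes. For complex V, 0 of the 4 also had an unadjusted p under 0.05. The called genes were Ndufaf4 (30.5% higher, adjusted p = 0.00114), Ndufaf6 (38.2%, adjusted p = 0.00953), Uqcc1 (21.5%, adjusted p = 0.0193) and Coa6 (36.4%, adjusted p = 0.0120). The medians of the log2 fold change were 0.13, 0.31, 0.16 and 0.059 in these lists. Ndufaf4 had 1234, 1207 and 1242 normalized counts against 1624, 1644 and 1540, so here GalNAc-siNC mouse 1 did not stand apart.

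Of 12 genes for transcription regulators of the chain, 0 were called in either direction by edgeR, and 1 had an unadjusted p under 0.05, Tfb2m (log2 fold change 0.26, adjusted p = 0.0506). The 12 had a median log2 fold change of 0.074. Nrf1 had -0.0020, Gabpa 0.063, Yy1 0.11 and the coactivator Ppargc1a 0.13. Esrra had 0.39 with an adjusted p of 0.387. DESeq2 called 0 of the 12 and limma voom 1, and edgeR called 1 with length offsets and 1 without GalNAc-siNC mouse 1.

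The 13 mRNAs encoded in mitochondrial DNA supply the other subunits. Together they took 55522, 43624 and 50654 CPM (counts scaled to library size) in GalNAc-siNC mice and 53836, 52494 and 52287 in GalNAc-siRnf10 mice. The groups overlapped through GalNAc-siNC mouse 1 alone, which was lowest in most nuclear members and here the highest. Of the 13, 3 were called higher and 0 lower: mt-Nd2 (14.1% higher, adjusted p = 0.0383), mt-Nd3 (42.4%, adjusted p = 0.00292) and mt-Co2 (42.0%, adjusted p = 0.0264). Of all tested genes, 6.71% were called higher. The median log2 fold change of the 13 was 0.19. Without GalNAc-siNC mouse 1, 7 of the 13 were called higher, beside 9.73% of all tested genes. Their median was then 0.22, but mt-Co2 was not called (adjusted p = 0.196). With length offsets 2 of the 13 were called higher, beside 7.87% of all tested genes. The median was 0.031 and mt-Nd2 was not called (adjusted p = 0.818). In GalNAc-siNC mice mt-Nd3 stood at 124 ± 11.1 TPM and mt-Co2 at 321 ± 26.8 TPM, far under mt-Nd2 at 14150 ± 1303 TPM. The nuclear genome holds copies of mitochondrial DNA, and how reads shared with them were counted is not given in the sources used here.

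Markers of other liver cells gave a mixed picture. Kupffer cell markers were called in 0 of 5 genes by edgeR, DESeq2 and limma voom, with 1 at an unadjusted p under 0.05. That gene, Cd5l, had a log2 fold change of -0.17 and was called lower with length offsets (adjusted p = 0.0303) and without GalNAc-siNC mouse 1 (adjusted p = 0.00775). By edgeR, stellate cell markers were called higher in 3 of 5 (Reln, Ecm1 and Dcn). The rest of that list, Lrat and Des, had no log2 fold change above 0. Endothelial markers were called higher in 2 of 5 (Clec4g and Lyve1), and of 4 cholangiocyte markers Spp1 was lower by a log2 fold change of -0.90. Of all tested genes, edgeR called 6.71% higher and 7.28% lower. The endothelial marker Stab2 had a log2 fold change of -0.26 (adjusted p = 0.0544), with every GalNAc-siRnf10 mouse below every GalNAc-siNC mouse, and was called lower without GalNAc-siNC mouse 1 (adjusted p = 0.0239). DESeq2 and limma voom called 1 endothelial marker higher each, and limma voom called 1 lower. The summed levels of the lists were 143 to 163 CPM against 147 to 153 for Kupffer cells, 101 to 106 against 120 to 125 for stellate cells, 58.5 to 59.1 against 60.7 to 62.7 for endothelium and 64.0 to 66.6 against 34.6 to 34.9 for cholangiocytes. The cholangiocyte sum is nearly all Spp1, and Krt19, Krt7 and Epcam had 16 to 36 raw counts per mouse and were not called. Lymphocyte markers summed to 5.02 to 7.74 against 5.65 to 7.68, with 0 of 2 tested genes called by any of the 3 tools and 0 at an unadjusted p under 0.05. The part of these cells in the result was not tested.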

How the data were processed

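Poly(A) RNA of 6 livers was prepared as stranded libraries and read in pairs on DNBSEQ, and the authors mapped the reads with HISAT2 to GRCm38 (mm10). They deposited raw counts per Ensembl gene, without normalization, beside the length of each gene model. The counting tool, its strand setting and the annotation release are not given in the sources used here. Symbols were taken from GENCODE M21, and 346 of 55487 genes had none.

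All genes were fitted in edgeR 4.0.16 (R 4.3.3): filterByExpr by group, TMM, estimateDisp, and a robust quasi-likelihood F-test with treatment as the only term, which was tested on simulated data. The common dispersion was 0.00861. Offsets for length were splines with 5 degrees of freedom per library. No batch term could be made, since all libraries share a batch label. Alternatives were RLE and upper-quartile scaling, other filters, DESeq2 1.42.0, limma 3.58.1 voom with quality weights, offsets, a replicate block, stricter thresholds and leaving out each mouse. Offsets from principal transcripts, and length offsets without each mouse, were chosen after seeing the data. TPM, counts and permutation tests were computed in Python 3.11.15 (scipy 1.17.1). The members and lists were chosen with earlier results of these data known. Named genes are Rnf10, the 4 markers, every called member (1 is not reported here), the extremes of level and fold change in each complex, the Sdh genes, isoform pairs and called genes of the other lists. Other named genes were chosen after their values were seen. No library was a copy of another: within groups, the chi-square of 2 libraries was 4.70 to 30.7 per gene.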

Additional observations from a re-analysis of the deposited data

How the results depend on the processing

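Of the 24 other fits, at an adjusted p under 0.05, 0 gave a member called lower, and 9 of the 27 called members were called in all of them: Ndufv1, Ndufa3, Ndufa5, Ndufb5, Ndufb6, Sdhb, Atp5b, Atp5c1 and Atp5f1. The matching count over all tested genes was not made. Against 27 calls, the count was 51 with no filter on low counts and 47 with DESeq2. Among all genes, those fits called 1168 of 24912 and 954 of 14046 higher. Stricter thresholds on the fit with 27 calls gave 15 at an adjusted p under 0.01 and 6 at a log2 fold change of at least 0.5. Leaving out 1 mouse gave 14 to 68 calls, and with length offsets 59, 27 and 65 without GalNAc-siNC mouse 1, 2 or 3 and 17, 19 and 18 without GalNAc-siRnf10 mouse 1, 2 or 3. In the same order, the fits with length offsets called 1435, 1015, 1103, 626, 659 and 652 of all tested genes higher. Those fits tested 14343 to 14491 genes. The cause of these shifts was not tested. A replicate block gave 37 calls, and 48 together with length offsets, while 895 and 1124 of all 14046 tested genes were called higher. However, same-numbered mice are different animals and did not deviate together (correlations -0.00099, 0.027 and -0.034). Other counts lay within 1.5 times of 27, and the summed TPM of each complex kept its direction.

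Reversals were found in genes that were not called. The Cox6c2 log2 fold change, on 12.1 to 19.7 normalized counts, was below 0 with length offsets (-0.061), with length and GC offsets (-0.0665), with length offsets and the block (-0.0546), with principal transcript length (-0.096, and -0.10 with GC), and with length offsets without GalNAc-siNC mouse 1 (-0.14) or 2 (-0.10) or GalNAc-siRnf10 mouse 1 (-0.0690) or 3 (-0.13). Leaving out 1 mouse gave Cox6c2 values of -0.017 to 0.34 and Atp5s values of -0.066 to 0.16. The Atp5s log2 fold change was below 0 with length and GC offsets (-0.0558), with principal length and GC (-0.047), and with length offsets without GalNAc-siNC mouse 2 (-0.00139) or GalNAc-siRnf10 mouse 3 (-0.12). The Ndufa8 log2 fold change was -0.0303 and the Ndufs6b log2 fold change -0.0208 with length offsets without GalNAc-siNC mouse 1 and 3, and the Cox7a2l log2 fold change was -0.00701 with principal length and GC. Depth limits the untested isoform genes, which had at most 18 counts.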

Other observations

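Ndufb1-ps is left out by the rule but lies in the same gene family. It had 402, 529 and 639 raw counts in GalNAc-siNC mice 1, 2 and 3 and 594, 662 and 563 in the GalNAc-siRnf10 mice, with GalNAc-siNC mouse 1 again the lowest. Mitochondrial mRNAs of the same transcript chain were counted at unequal levels per kilobase: mt-Co1 stood at 33708 ± 5216 TPM in GalNAc-siNC mice and mt-Co2 at 321 ± 26.8 TPM.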
